A study of Mus musculus with 20 samples.

Results

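Glycogen is the branched glucose polymer in which the heart keeps a local store of sugar. The 7 genes described here encode enzymes that build and degrade it: Gys1, Ugp2 and Gbe1 on the side of synthesis, Pygm and Pygb as the phosphorylases of muscle and brain type, and Phka1 and Phkg1 as subunits of the kinase that switches phosphorylase on. They were taken by name as enzymes of this pathway, out of 18193 genes that an array probe set identified unambiguously. All 7 lay above the expression filter, as did 12075 genes in all.

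The samples were ventricles of female C57BL/6 mice, all ovariectomized at 8 weeks of age and then given an implanted osmotic minipump for 4 weeks. There were 4 groups of 5 arrays: placebo (titled OVX), 17β-estradiol (titled E2), 16α-LE2, which the labels describe as an agonist of estrogen receptor α (titled alpha), and a group titled beta whose treatment label says control solution. Title and treatment of that last group disagree, so its arrays are referred to as the beta-titled group and were not merged with placebo. Every animal lacked its ovaries, the pumps of treated animals delivered estrogens complexed with cyclodextrin, no group was sham-operated, and doses are not given in the labels. The labels do not tie the arrays to animals in so many words, so the p-values measure the spread between samples of a group.

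In glycogen synthesis, UDP-glucose pyrophosphorylase (Ugp2) makes the activated glucose donor, glycogen synthase (Gys1 in muscle and heart) extends the chains, and branching enzyme (Gbe1) adds the branch points. In breakdown, phosphorylase releases glucose units from the chain ends. Phosphorylase kinase, with a regulatory alpha subunit (Phka1 in muscle) and a catalytic gamma subunit (Phkg1 in muscle), phosphorylates phosphorylase in response to calcium and adrenergic signals. Much of the control of this pathway acts on the proteins through phosphorylation and glucose 6-phosphate, which an array of transcripts does not measure.

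Promoter sequences are shown for the 4 genes whose levels varied together in pairs over the arrays, Ugp2 with Gbe1 and Gys1 with Pygm. Each is the stretch of 250 bases before a RefSeq transcription start on GRCm38.p6, read on the gene's strand: chr11:21371268-21371517 (minus) for Ugp2, chr16:70313699-70313948 (plus) for Gbe1, chr7:45434589-45434838 (plus) for Gys1 and chr19:6384158-6384407 (plus) for Pygm. Capitals mark matches to a GC box (GGGCGG) or a CCAAT box (CCAAT) on either strand.
Ugp2: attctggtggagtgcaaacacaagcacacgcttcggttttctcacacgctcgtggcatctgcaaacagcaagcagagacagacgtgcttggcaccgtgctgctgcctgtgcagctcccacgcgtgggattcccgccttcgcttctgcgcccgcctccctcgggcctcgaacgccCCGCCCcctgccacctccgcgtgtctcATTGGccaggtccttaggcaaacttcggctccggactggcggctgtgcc
Gbe1: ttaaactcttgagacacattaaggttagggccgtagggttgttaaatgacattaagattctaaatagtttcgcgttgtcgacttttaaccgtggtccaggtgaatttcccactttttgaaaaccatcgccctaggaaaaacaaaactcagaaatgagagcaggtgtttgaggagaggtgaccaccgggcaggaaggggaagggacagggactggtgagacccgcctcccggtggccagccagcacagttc
Gys1: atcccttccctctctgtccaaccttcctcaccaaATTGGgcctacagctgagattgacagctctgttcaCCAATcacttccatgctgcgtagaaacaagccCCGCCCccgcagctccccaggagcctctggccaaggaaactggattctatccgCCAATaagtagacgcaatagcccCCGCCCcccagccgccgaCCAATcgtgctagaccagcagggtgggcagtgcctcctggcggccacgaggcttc
Pygm: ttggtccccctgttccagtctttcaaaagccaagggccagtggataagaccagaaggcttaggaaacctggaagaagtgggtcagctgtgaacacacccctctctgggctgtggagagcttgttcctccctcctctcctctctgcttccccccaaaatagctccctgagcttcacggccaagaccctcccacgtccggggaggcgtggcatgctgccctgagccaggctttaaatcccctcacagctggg
The Gys1 window held 2 GC boxes and 4 CCAAT boxes, and the Ugp2 window shown 1 of each. Ugp2 has a second RefSeq start, whose window (chr11:21370630-21370879) held 2 GC boxes and no CCAAT box. The Gbe1 and Pygm windows held neither. Over all 32851 RefSeq windows of this length, 32.7% held a GC box and 33.8% a CCAAT box. Another 3 motifs were searched on both strands: the estrogen response element GGTCANNNTGACC, the estrogen-related receptor element TCAAGGTCA, whose last 5 letters are also the first 5 of the former, and the E-box CACGTG. They were present in 0.0639%, 0.387% and 6.02% of all windows. None of them was found in the 8 windows of the 7 genes, which says only that these letters are absent from these stretches.

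Values are deposited log2 signals, 1 for each probe set and array, and a difference of 1 is taken as 2-fold. A gene is represented by its brightest probe set, and levels of different genes are not compared because probes differ in brightness. Spearman correlations between arrays lay between 0.978 and 0.992, except those of estradiol replicate 33, which lay between 0.922 and 0.940. The SD of all values on an array was lowest on beta-titled replicates 32 and 31 (1.30 and 1.32) and estradiol replicate 33 (1.34), and 1.38 to 1.48 on the other 17 arrays. The mean of 8 cardiomyocyte markers was 13.71 to 14.07 on every array. Of 10 skeletal muscle markers, 5 lay below the filter, among them Myh4 and Actn3. The other 5 (Myh2, Pvalb, Mylpf, Atp2a1 and Tnni2) lay above it, at 7.04 to 8.09. The mean of 8 fibroblast markers was 9.72 to 9.92 in the 16α-LE2 group, 10.13 to 10.81 in placebo, 10.16 to 10.42 with estradiol and 10.33 to 10.57 in the beta-titled group. All 8 were lower with 16α-LE2 than in placebo (median -0.63, 2 called, smallest limma adjusted p = 0.000102). Of 6 endothelial markers, 6 were lower with 16α-LE2 than in placebo (median -0.32, 0 called), with a mean level of 8.68 to 9.19 against 9.06 to 9.58. Of 3 tested red blood cell markers, 3 were higher (median 0.57, 1 called; limma adjusted p = 0.0255), with a mean over the list of 7.98 to 8.88 against 7.57 to 8.01. The mean of 4 atrial markers ran from 8.48 to 11.61 over the arrays. Whether these differences in marker levels play a part in any value of the 7 genes was not tested. In bulk tissue, fewer cells of a type and less RNA per cell cannot be told apart.

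None of the 7 genes passed the test in any of the 6 comparisons between groups (limma, Benjamini-Hochberg adjusted p under 0.05 over 12075 genes). The background was low as well: 0.224% of all genes were called for 16α-LE2 against placebo, 0.174% for 16α-LE2 against the beta-titled group and 0.0166% for 16α-LE2 against estradiol. In the other comparisons, estradiol or the beta-titled group against placebo and estradiol against the beta-titled group, 0 genes were called, or 0% of those tested. An unadjusted p under 0.05 was reached by Ugp2 for the beta-titled group against placebo, where 688 genes (5.70%) reached it, and by Phkg1 for 16α-LE2 (675 genes, 5.59%) and estradiol (463 genes, 3.83%) against the beta-titled group. None of the 7 genes reached it for 16α-LE2 against placebo (1087 genes, 9.00%), estradiol against placebo (1161 genes, 9.61%) or 16α-LE2 against estradiol (626 genes, 5.18%). In no comparison did the 5 arrays of one group all lie above the 5 of the other for any of the 7 genes. Over all genes, such separation was seen for 3.28% with 16α-LE2, 0.878% with estradiol and 0.845% in the beta-titled group against placebo. It was seen for 0.754% between the agonists, and for 2.28% (16α-LE2) and 0.398% (estradiol) against the beta-titled group. Placed in order, neighbouring group means of a gene differed by less than its SD within groups in all 7 cases.

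Ugp2 was the synthesis gene with the widest differences. In placebo ventricles its log2 signal was 11.98, 12.19, 12.23, 12.34 and 12.46. With estradiol it was 11.50, 12.00, 12.04, 12.08 and 12.16. The estradiol values thus overlapped the lower part of the placebo range, and replicate 33 lay well below the other 4. With 16α-LE2 the arrays read 11.75, 12.01, 12.28, 12.40 and 12.43, with replicate 29 as the only one below the placebo range. In the beta-titled group they read 11.54, 11.64, 12.03, 12.15 and 12.24, with replicates 32 and 31 as the low pair. Group means were 12.24 ± 0.18 (SD, n = 5 in each group) for placebo, 12.17 ± 0.29 for 16α-LE2, 11.96 ± 0.26 for estradiol and 11.92 ± 0.31 for the beta-titled group.

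Against placebo, Ugp2 differed by -0.28 ± 0.15 log2 units with estradiol (SE; 95% confidence interval -0.60 to 0.03; limma adjusted p = 0.499) and by -0.32 ± 0.15 in the beta-titled group (-0.64 to -0.0049; limma adjusted p = 0.707). With 16α-LE2 the difference was -0.07 ± 0.15 (-0.38 to 0.25). The interval for estradiol reaches a level 1.52-fold lower than placebo and, at its other end, 1.02-fold higher. The other 4 Ugp2 probe sets had the same sign, with all 5 between -0.28 and -0.20 for estradiol and between -0.32 and -0.21 for the beta-titled group. The low values sat on the arrays of narrowest spread. Without those 3 arrays the Ugp2 difference from placebo was -0.17 for estradiol and -0.10 for the beta-titled group, and after quantile normalization, which gives every array the same spread, it was -0.16 and -0.14.

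Gys1, the synthase itself, showed the narrowest range of group means on the synthesis side, 0.20 log2 units. Its placebo values were 8.85, 8.88, 8.99, 8.99 and 9.14. Those with 16α-LE2 were 8.91, 8.96, 9.00, 9.11 and 9.34, the highest being replicate 29. Those with estradiol were 8.67, 8.91, 9.04, 9.20 and 9.26, so that this group held the lowest of all 20 arrays, replicate 33, and also the second highest. The beta-titled group read 8.69, 8.76, 8.84, 9.01 and 9.02. In order, the means were 9.06 ± 0.17 for 16α-LE2, 9.02 ± 0.24 for estradiol, 8.97 ± 0.11 for placebo and 8.87 ± 0.15 for the beta-titled group (SD, n = 5 each). The difference from placebo was 0.09 log2 units with 16α-LE2 (95% interval -0.13 to 0.32, limma adjusted p = 0.878) and 0.05 with estradiol (-0.18 to 0.28, limma adjusted p = 0.841). For Gys1, a rise with 16α-LE2 of more than 1.25-fold or a fall of more than 1.10-fold therefore lay outside the interval. Without replicate 29, the 16α-LE2 difference was 0.024. A second Gys1 probe set gave -0.02 and -0.03 in these comparisons.

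Gbe1, the branching enzyme, was measured by 1 probe set. Its placebo arrays were close together at 8.94, 9.01, 9.07, 9.15 and 9.17. Estradiol arrays read 8.71, 8.91, 8.97, 8.97 and 9.22, and 16α-LE2 arrays 8.54, 8.86, 8.92, 9.06 and 9.18. The beta-titled arrays were the most scattered at 8.59, 8.62, 8.75, 9.02 and 9.21. Each of these 3 groups thus extended past the placebo range at both ends. The group means were ordered as placebo (9.07 ± 0.10), estradiol (8.96 ± 0.18), 16α-LE2 (8.91 ± 0.24) and beta-titled (8.84 ± 0.27; SD, n = 5 each). Differences from placebo were -0.11 log2 units for estradiol (limma adjusted p = 0.668), -0.16 for 16α-LE2 (limma adjusted p = 0.780; -0.064 without replicate 29 and -0.069 after quantile normalization) and -0.23 for the beta-titled group (95% interval -0.49 to 0.03, limma adjusted p = 0.707). Without the 3 arrays of narrowest spread the values were -0.049 for estradiol and -0.07 for the beta-titled group.

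**Figure D1:**
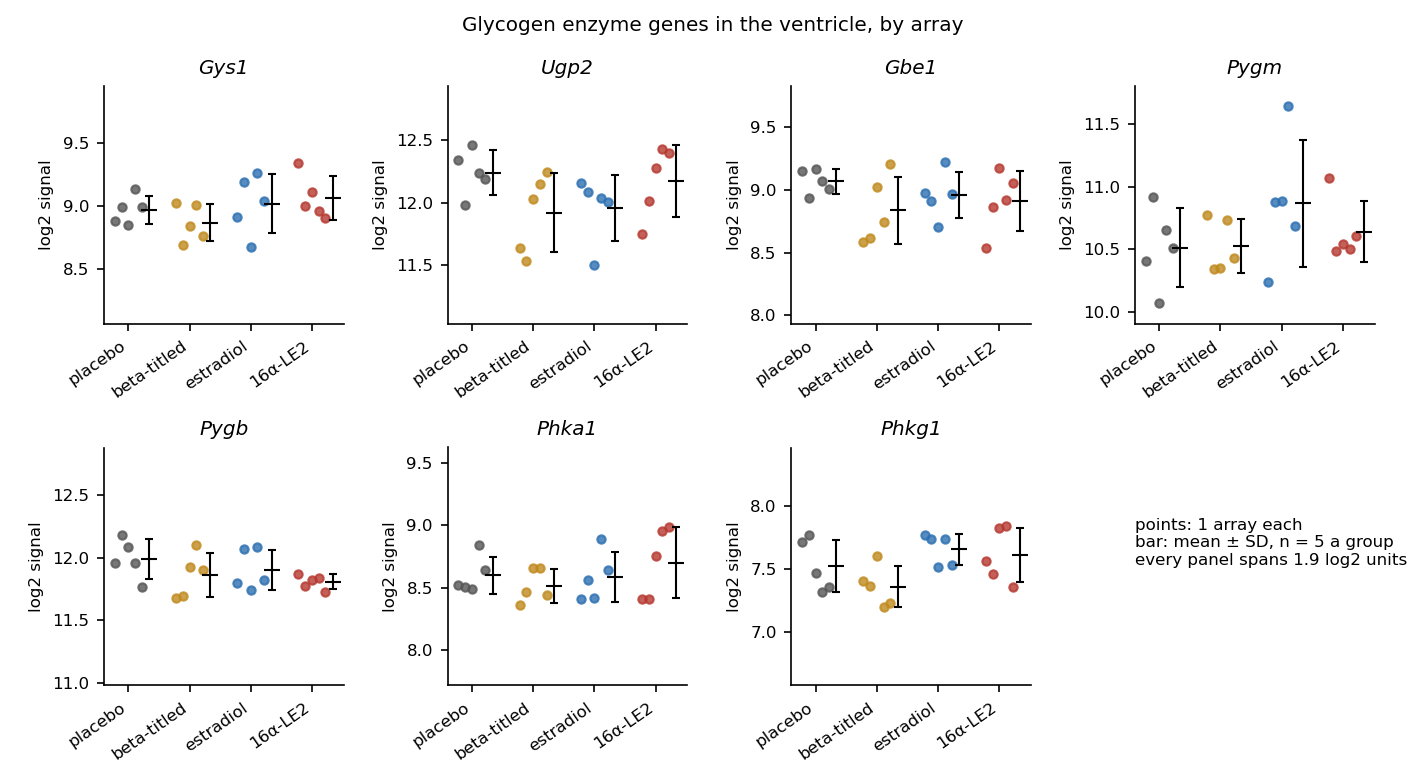
Log2 signal of the 7 genes (vertical axes, all spanning the same number of log2 units) in the 4 groups, 1 point for each array, with the group mean and SD (n = 5) beside the points. The groups overlap for every gene; estradiol replicate 34 stands highest for Pygm at 11.64, and estradiol replicate 33 lowest for Ugp2 at 11.50.

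Among the phosphorylases, Pygm, the muscle enzyme, had the largest difference of the 7 genes, and also the largest scatter. Its estradiol values were 10.24, 10.69, 10.88, 10.89 and 11.64, so that this group held the highest of all 20 arrays, replicate 34, and the lowest but for 1 placebo array, replicate 29. The placebo arrays read 10.07, 10.41, 10.51, 10.65 and 10.92, and the beta-titled arrays 10.34, 10.35, 10.43, 10.74 and 10.78. With 16α-LE2, 4 arrays lay together at 10.49, 10.50, 10.54 and 10.60 and replicate 29 stood apart at 11.07. The means were 10.87 ± 0.51 for estradiol, 10.64 ± 0.24 for 16α-LE2, 10.53 ± 0.21 for the beta-titled group and 10.51 ± 0.31 for placebo (SD, n = 5 each). The SD of Pygm within groups, 0.34 log2 units, was larger than that of 97.8% of genes tested, for which the median was 0.16. Estradiol against placebo differed by 0.36 ± 0.19 (SE; 95% interval -0.04 to 0.75; limma adjusted p = 0.499), and estradiol against the beta-titled group by 0.34 ± 0.19 (limma adjusted p = 0.926). The interval against placebo reaches 1.68-fold at its upper end. That value depended on single arrays: without estradiol replicate 34 the difference from placebo was 0.16, and without estradiol replicate 29 it was 0.51. With 16α-LE2 the difference from placebo was 0.13 ± 0.19 (-0.27 to 0.52; limma adjusted p = 0.910), and 0.020 without replicate 29.

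Pygb, the phosphorylase first described in brain, was steadier, with an SD within groups of 0.15. Its values ran from 11.76 to 12.18 in placebo, from 11.74 to 12.08 with estradiol, from 11.68 to 12.10 in the beta-titled group and from 11.72 to 11.87 with 16α-LE2. The 16α-LE2 arrays thus lay in the lower part of the placebo range, with 1 array (replicate 34) below it. Means were 11.99 ± 0.16, 11.90 ± 0.16, 11.86 ± 0.17 and 11.81 ± 0.06 in that order of groups (SD, n = 5 each). The 16α-LE2 group differed from placebo by -0.18 ± 0.10 log2 units (SE; 95% interval -0.39 to 0.02; limma adjusted p = 0.617), and after quantile normalization by -0.09. Of 4 listed neuron markers, 3 lay below the filter in these samples (Tubb3, Snap25 and Nefl), and Stmn2 lay above it at 7.81.

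Of the phosphorylase kinase subunits, Phkg1, the catalytic one, had the smallest p of any of the 7 genes. Its estradiol arrays were close together at 7.51, 7.53, 7.74, 7.74 and 7.77. The beta-titled arrays were lower at 7.20, 7.23, 7.37, 7.40 and 7.60, and only the highest of them entered the estradiol range. Placebo arrays spread over both, at 7.31, 7.36, 7.47, 7.71 and 7.77, and so did the 16α-LE2 arrays, at 7.36, 7.46, 7.57, 7.82 and 7.84. Means were 7.66 ± 0.13 for estradiol, 7.61 ± 0.22 for 16α-LE2, 7.53 ± 0.21 for placebo and 7.36 ± 0.16 for the beta-titled group (SD, n = 5 each). Estradiol exceeded the beta-titled group by 0.30 ± 0.11 log2 units (SE; 95% interval 0.08 to 0.52; limma adjusted p = 0.926), and 16α-LE2 exceeded it by 0.25 ± 0.11 (0.03 to 0.47; limma adjusted p = 0.753). The first of these p-values ranked 80 among 12075 genes. A second Phkg1 probe set gave 0.18 in both comparisons. With any 1 array left out, the estradiol difference stayed between 0.26 and 0.36. Against placebo, Phkg1 differed by 0.13 with estradiol, 0.08 with 16α-LE2 and -0.17 in the beta-titled group, with limma adjusted p from 0.556 to 0.887.

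Phka1, the regulatory subunit of muscle, ran from 8.49 to 8.84 in placebo, from 8.41 to 8.89 with estradiol and from 8.36 to 8.66 in the beta-titled group. With 16α-LE2 the arrays fell into a low pair at 8.41 (replicates 29 and 30) and a high trio at 8.76, 8.95 and 8.98. Means were 8.70 ± 0.28 for 16α-LE2, 8.60 ± 0.15 for placebo, 8.58 ± 0.20 for estradiol and 8.52 ± 0.13 for the beta-titled group (SD, n = 5 each). Against placebo the 16α-LE2 difference was 0.10 ± 0.12 log2 units (SE; 95% interval -0.15 to 0.35; limma adjusted p = 0.878). The other 2 Phka1 probe sets had the opposite sign there, -0.14 and -0.06, so the probe sets disagreed on the direction in that comparison. Each was lower than placebo with estradiol (-0.02, then -0.17 and -0.14 for the other 2). The same held in the beta-titled group (-0.08, then -0.23 and -0.16). The value of -0.23 had an unadjusted p of 0.0188 (limma over all probe sets with 1 symbol).

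**Figure D2:**
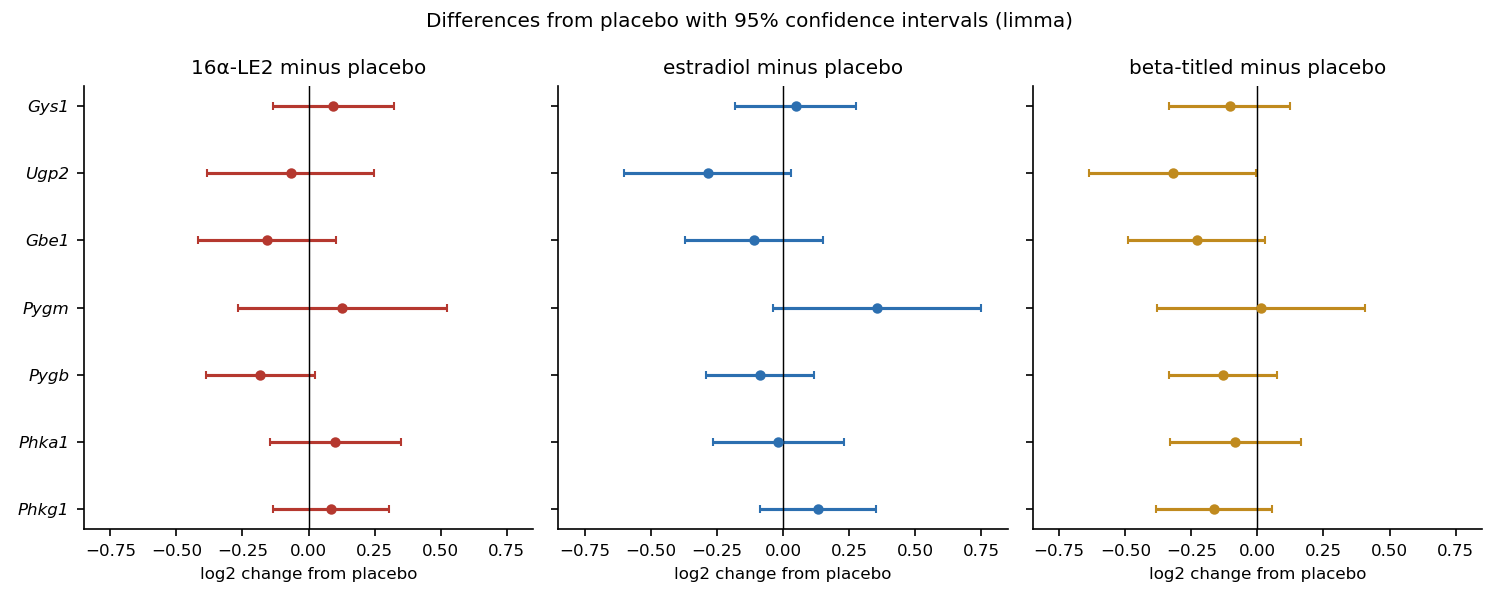
Difference in log2 signal from placebo for each gene (horizontal axis), with the 95% confidence interval from limma, for 16α-LE2, estradiol and the beta-titled group. The intervals include 0 except for Ugp2 in the beta-titled group, whose upper end is -0.0049, and none reaches a 2-fold change.

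Against placebo, the directions of the 7 genes were as follows. With 16α-LE2, 4 were higher and 3 lower, with a median of 0.08 log2 units beside -0.03 over all genes tested. With estradiol 3 were higher and 4 lower (median -0.02, all genes -0.03), and in the beta-titled group 1 was higher and 6 lower (median -0.13, all genes -0.04). After quantile normalization these counts were 5 and 2, 5 and 2, and 2 and 5, and without the 3 arrays of narrowest spread 4 and 3, 4 and 3, and 0 and 7. These 3 comparisons share the placebo arrays. The agonists were compared with each other at the same duration, without known doses: 16α-LE2 less estradiol was -0.23 for Pygm (95% interval -0.62 to 0.17), 0.22 for Ugp2 (-0.10 to 0.53), 0.12 for Phka1 (-0.13 to 0.37) and between -0.10 and 0.05 for Gys1, Gbe1, Pygb and Phkg1. The smallest limma adjusted p among these 7 differences was 0.875, and the interval of each included 0. Against the beta-titled group, 6 of 7 genes were higher with 16α-LE2 (median 0.19, all genes 0.0036) and 7 of 7 with estradiol (median 0.12, all genes 0.02), with none called. Over all genes, 6265 and 7176 of 12075 were higher in these comparisons. The counts of the 7 genes were 6 and 5 after quantile normalization, and 5 and 5 without the 3 arrays of narrowest spread.

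The other genes of glycogen metabolism followed in the same comparisons. Of 46 listed, 35 were tested. Below the filter lay 7 (Gys2, Ppp1r3e, Ppp1r3g, Pask, Prkag3, Epm2a and Nhlrc1), and the rest were not analysed here. In all 6 comparisons 0 of the 35 passed the test (limma), and between 2 and 4 had an unadjusted p under 0.05 in each. With 16α-LE2, 9 were higher than in placebo and 26 lower (median -0.09), with estradiol 10 and 25 (median -0.07), and in the beta-titled group 10 and 25 (median -0.08). Over all genes tested, 4863 were higher and 7212 lower with 16α-LE2, 5173 and 6902 with estradiol, and 4508 and 7567 in the beta-titled group. After quantile normalization the median over all genes was 0.014 with 16α-LE2, beside -0.03 before it. Directions of the 35 genes were not counted again in that setting.

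By role as listed here, the genes placed with synthesis lay between -0.16 and -0.04 with 16α-LE2. They are the glycogenin primer Gyg and the phosphoglucomutase family genes Pgm1, Pgm2 and Pgm2l1, whose place on 1 side is a choice of the listing. Those placed with breakdown, Pygl, the liver phosphorylase, and Gaa, the lysosomal glucosidase, were at 0.13 and 0.23 with 16α-LE2. Of 10 tested subunits and inhibitors of protein phosphatase 1, which dephosphorylates the synthase and phosphorylase, 8 were below placebo with 16α-LE2, 8 with estradiol and 7 in the beta-titled group. Of 13 tested kinase genes, 11, 9 and 10 were below placebo. Of all 12075 genes tested, 7212, 6902 and 7567 were below placebo in these comparisons. None of the genes listed by role was called.

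Of these 35 genes, the 3 with the smallest p in each comparison with placebo are given here. With 16α-LE2 they were Prkar1a, Ppp1r3d and Prkacb. Prkar1a, a regulatory subunit of the cAMP-dependent kinase, was 11.26 ± 0.19 with 16α-LE2 and 11.61 ± 0.14 in placebo, a difference of -0.35 ± 0.12 (limma adjusted p = 0.282). Every 16α-LE2 array lay below every placebo array for Prkar1a, as for 3.28% of all genes in one direction or the other. In the beta-titled group its difference was -0.29 ± 0.12 (limma adjusted p = 0.707), and with estradiol it was -0.24. Prkacb, a catalytic subunit of the same kinase, differed by -0.25 ± 0.11 with 16α-LE2 (limma adjusted p = 0.504), again without overlap. Ppp1r3d, a glycogen-targeting subunit of the phosphatase, differed by -0.40 ± 0.14 (limma adjusted p = 0.321).

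With estradiol the smallest p-values were those of Pgm2 (-0.21 ± 0.09), Prkab1, a subunit of the AMP-activated kinase (0.25 ± 0.11), and the phosphatase catalytic subunit Ppp1cb (-0.32 ± 0.15), each at a limma adjusted p of 0.499. In the beta-titled group, beside Prkar1a, they were those of Gyg (-0.21 ± 0.10) and Gabarapl1, a protein of the autophagy machinery that can take up glycogen (-0.32 ± 0.17), both at a limma adjusted p of 0.707.

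**Figure D3:**
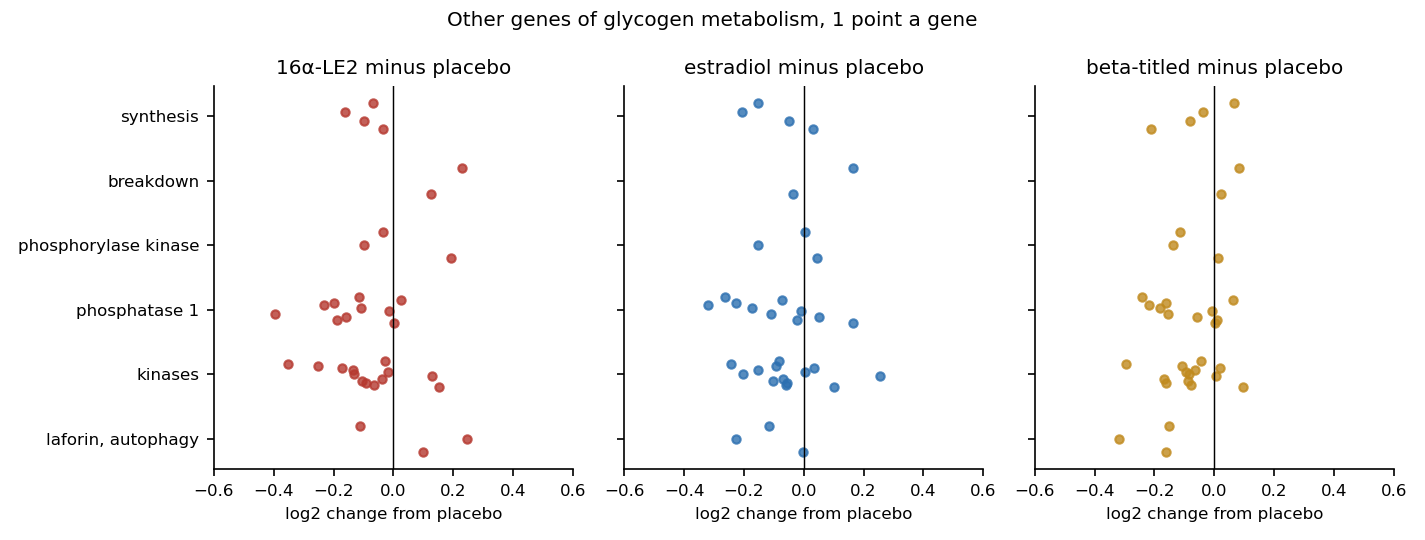
Difference in log2 signal from placebo (horizontal axis) of the 35 other tested genes of glycogen metabolism, 1 point a gene, in rows by role, for 16α-LE2, estradiol and the beta-titled group. More points lie left of 0 than right of it, 26 of 35 with 16α-LE2, and none was called. Over all 12075 genes tested, 7212 were lower in that comparison.

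For each of the 7 genes, the arrays of at least 1 group spanned a wider range than the group means did, and some genes shared this variation. After each array's value was set against its group mean, the 21 pairs of the 7 genes were correlated over the 20 arrays, with permutation p-values of 100000 resamples (two-sided) adjusted over the 21 pairs. The permutations ran over all arrays and not within groups, so the p-values are somewhat too small. On the synthesis side, Ugp2 and Gbe1 varied together (Pearson r = 0.79, permutation p = 2e-05, adjusted p = 0.00042, and Spearman rho = 0.70, permutation p = 0.00087, adjusted p = 0.0181). Gys1, on the same side, had r = -0.01 with Ugp2 and -0.09 with Gbe1. The low arrays for both Ugp2 and Gbe1 were estradiol replicate 33, 16α-LE2 replicate 29 and beta-titled replicates 31 and 32. Without the 2 arrays farthest from the median of Ugp2, r was 0.70 (permutation adjusted p = 0.00976), while rho was 0.59 and did not pass (permutation adjusted p = 0.117). The synthase Gys1 and the phosphorylase Pygm, which act in opposite directions on the polymer, also varied together (r = 0.65, permutation p = 0.00181, adjusted p = 0.019; rho = 0.66, permutation p = 0.00172, adjusted p = 0.0181). Estradiol replicate 34 and 16α-LE2 replicate 29 were high for both. Without the 2 arrays farthest from the median of Gys1, r was 0.72 (permutation adjusted p = 0.00861) and rho 0.74. No other pair passed: the next were Ugp2 with Phka1 (r = 0.53, permutation adjusted p = 0.12) and Gbe1 with Phka1 (r = 0.50, permutation adjusted p = 0.129).

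Many genes outside the pathway were as close to these 4 or closer. Of 12074 other genes, 5.11% had a higher r with Ugp2 than Gbe1 had, and 1.23% a higher r with Gbe1 than Ugp2 had. For Gys1 and Pygm the shares were 10.6% (genes closer to Gys1) and 4.02% (genes closer to Pygm). The genes most like Ugp2 over the 20 arrays were Rnf139 (r = 0.96), Bud31 (0.95) and Gnai3 (0.95), and those most like Gbe1 were Sacm1l (0.96), Trak2 (0.95) and Rbm18 (0.92). For Gys1 they were Smpd2 (0.94), Npr2 (0.94) and Trim8 (0.93), and for Pygm Ccdc97 (0.93), Sema3b (0.92) and Glg1 (0.92). The closest gene was Dazap2 for Pygb (0.90), Tor1aip2 for Phka1 (0.85) and Gtpbp8 for Phkg1 (0.80). Each was picked as a maximum over many genes and is given as a description.

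**Figure D4:**
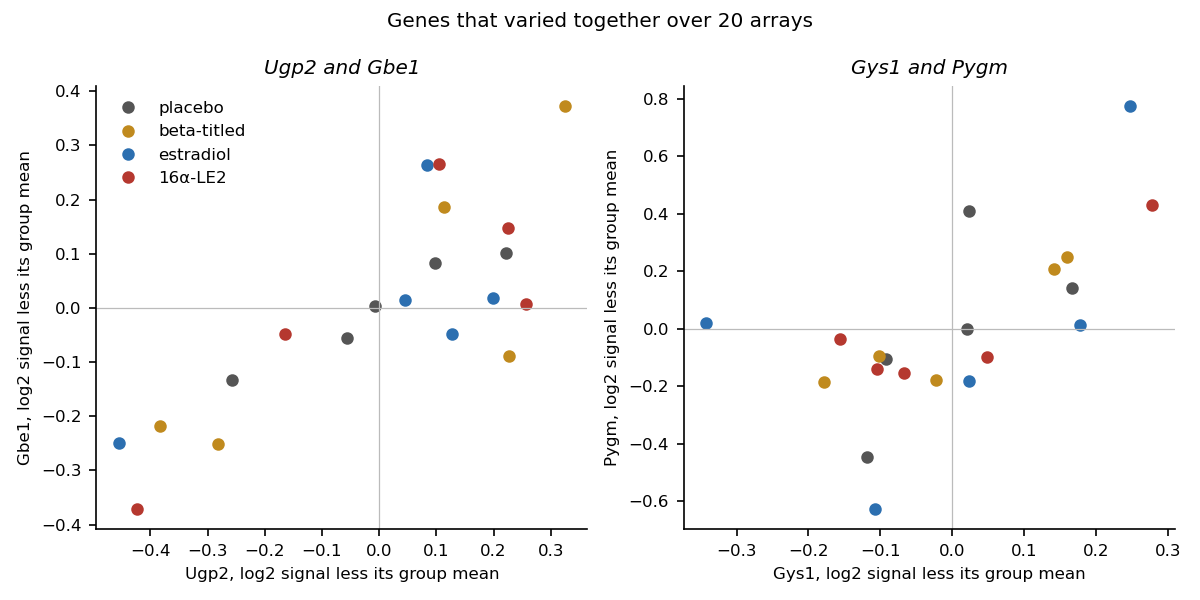
Log2 signal less the mean of the array's group, Gbe1 against Ugp2 and Pygm against Gys1, 1 point for each of the 20 arrays, coloured by group. Points rise from lower left to upper right in both panels (Pearson r = 0.79 and 0.65), with arrays of every group along the way.

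The level of 3 of the genes moved with the spread of values on the array. Over 20 arrays, with group means removed, Ugp2 correlated with the array SD at r = 0.82 (rho = 0.83, permutation adjusted p = 0.00014 for both, adjusted over 7 genes), Pygb at r = 0.72 (rho = 0.73, permutation adjusted p = 0.00112 and 0.0015) and Gbe1 at r = 0.66 (rho = 0.65, permutation adjusted p = 0.00348 and 0.00607). Without the 2 arrays whose SD, less its group mean, lay farthest from the median, r was 0.73, 0.66 and 0.57. Over all genes tested the median r with the array SD was 0.29 and the 95th percentile 0.81, so that Ugp2 lay above 95.8% of genes, Pygb above 86.8% and Gbe1 above 80.6%. The other 4 genes lay between -0.13 for Pygm and 0.26 for Phka1 and Phkg1, none of them called. Without the 3 narrowest arrays the values were 0.56 for Ugp2, 0.50 for Pygb and 0.36 for Gbe1, none of which passed (permutation adjusted p = 0.143, 0.144 and 0.281), so the relation rests in part on those arrays. On arrays brought to one distribution by quantile normalization, Ugp2 kept r = 0.62 (permutation adjusted p = 0.0245), whereas Gbe1 had 0.42 and Pygb -0.10. The pair Ugp2 and Gbe1 had r = 0.66 without the 3 arrays (permutation adjusted p = 0.0465), where rho was 0.63 and did not pass (permutation adjusted p = 0.0814), and r = 0.63 after quantile normalization (permutation adjusted p = 0.0211). Gys1 and Pygm had 0.78 (permutation adjusted p = 0.00315) and 0.71 (permutation adjusted p = 0.00945). The same settings added pairs: Gys1 with Ugp2 at r = -0.62 without the 3 arrays (permutation adjusted p = 0.0493; rho did not pass), and Ugp2 with Pygm at r = -0.57 (permutation adjusted p = 0.0431) and Pygm with Pygb at r = 0.66 (permutation adjusted p = 0.0198) after quantile normalization. These relations with the array SD were examined after the data had been seen. Their permutations also ran over all arrays and not within groups, so these p-values too are somewhat too small.

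**Figure D5:**
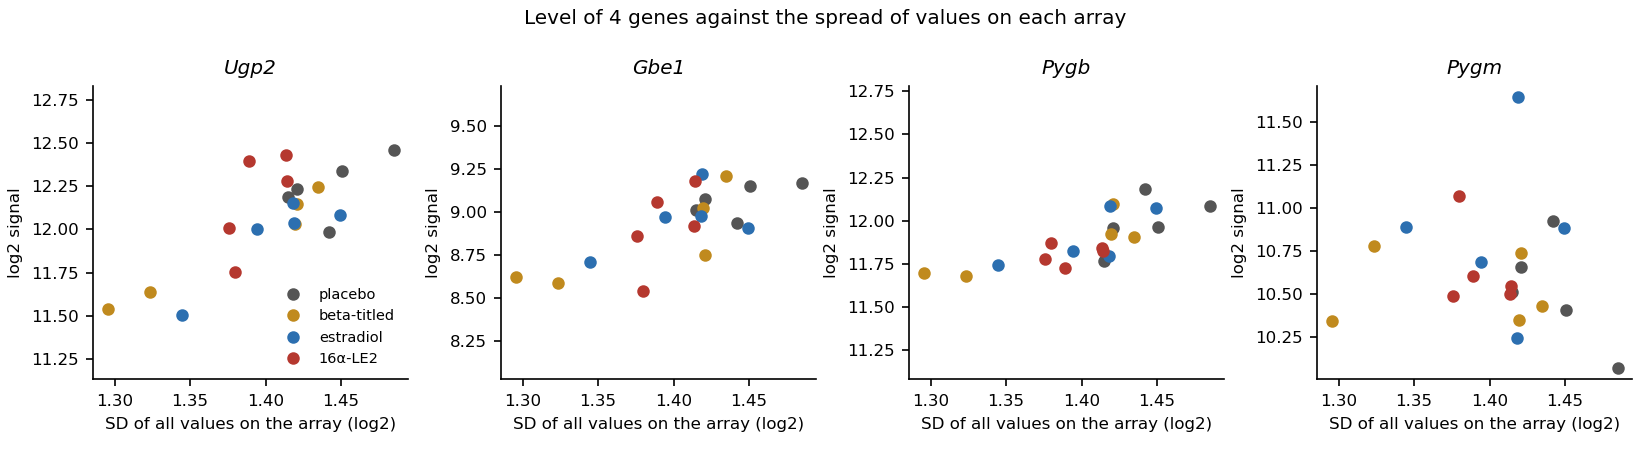
Log2 signal of Ugp2, Gbe1, Pygb and Pygm (vertical axes) against the SD of all values on the array (horizontal axis, log2 units), 1 point for each of 20 arrays, coloured by group. The 3 arrays with an SD of 1.30, 1.32 and 1.34 hold low values of Ugp2, Gbe1 and Pygb, and Pygm has no such slope (r = -0.13).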

How the data were processed

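One Affymetrix mouse array was run for each of 20 ventricle samples from 100 ng of biotin-labelled RNA, per the labels. The deposited values of the series table, 1 per probe set (45101) and array, are read as log2 because they run from 5.07 to 15.31. Log base, summarization, normalization between arrays and genome build: not given in the sources used here. No signal over background was used, so low values are not separated from background. No slide or scan batch was used.

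Control probe sets (64) were dropped. Genes were named from 34945 probe sets annotated with exactly 1 symbol (932 have several, 9160 none). A probe set entered if its mean over 20 arrays exceeded 6.93 (the median probe set), and the brightest one stood for its gene. All 20 arrays were fitted with limma 3.58.1 in R 4.3.3 (group means, eBayes with an intensity trend), with Benjamini-Hochberg adjustment over 12075 genes. The median half-width of a 95% interval was 0.21 log2 units, limited by the number of arrays. Samples were grouped by title. Correlations and figures used Python 3.11.15, numpy 2.4.6 and matplotlib 3.10.9. On simulated data in which 200 of 12075 genes differed from placebo in the 16α-LE2 group, 51.2% of changes of 0.4 log2 units and 95.4% of changes of 0.8 were recovered over 10 runs, with 5.07% and 4.82% of calls false. These rates are over all changed genes together. The SD within groups was 0.15 (Pygb) to 0.34 (Pygm) for the 7 genes, beside a median of 0.16. Recovery for the 7 genes by themselves was not tested. Whether the rates hold for arrays that differ in spread, as these do, was not tested.

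The 7 genes, the pathway list and the markers were chosen with earlier results of these data known. Named were the 7 genes, the 3 pathway genes of smallest p in each comparison with placebo, and the 3 genes most like each of the 7; other pathway genes named as examples of a role were picked with their values in view. Settings varied were the filter, probe set summary, array scaling, array weights, groups fitted, a replicate block, pooling of placebo with beta-titled arrays, and each array's omission. Leaving out the 3 arrays of narrowest spread, and the relation with array spread, were added after the data were seen. Replicate numbers were not used to pair the samples in the main fit. Promoters are from RefSeq (GRCm38.p6), where all 7 genes were matched.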

Additional observations from a re-analysis of the deposited data

Results flagged for a closer look

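In groups of 5 arrays, the lowest and the highest value were compared with the rest of their group for each of the 7 genes, 28 groups in all, by Dixon's ratio of the gap to the whole range (critical value 0.71). Chance exceeds it in about 1 of 20 groups, and 2 did here. Pygm on 16α-LE2 replicate 29 was 11.07, the highest of its group, with a gap of 0.799 of the range. Ugp2 on estradiol replicate 33 was 11.50, the lowest of its group, with a gap of 0.765 of the range; this is also the array of lowest correlation with the others. Without that array, Ugp2 with estradiol differed from placebo by -0.17 instead of -0.28 log2 units.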

How the results depend on the processing

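None of the 7 genes, nor any of the other pathway genes tested, was called in any comparison under any of 29 other settings, of which 20 leave out 1 array each and 1, pooling placebo with the beta-titled arrays, was run for the comparisons of 16α-LE2 and estradiol with placebo only; the smallest limma adjusted p of any of the 7 was 0.12 (Pygb, 16α-LE2 against placebo, array weights, in which estradiol replicate 33 weighs 0.079). Of 350 differences recomputed under the other settings, 325 kept their direction and 25 did not. Of 840 with 1 array left out, 819 kept it and 21 did not. Many of these could not have changed. Leaving out an array of a group outside the comparison does not alter the difference. Dropping the filter or fitting only the groups compared does not alter it either. The counts that kept their direction are therefore no measure of stability. None of these differences had been called, and the cause of the reversals was not tested.

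Reversed values, on the log2 scale and against placebo, were: with 16α-LE2, Ugp2 0.023 (quantile normalization), 0.022 (array weights) and 0.094 (placebo pooled with the beta-titled arrays), Pygm -0.044 (array weights) and Phka1 -0.034 (mean over probe sets); with estradiol, Gys1 -0.040 (replicate block), Gbe1 0.0042 (pooled), Pygb 0.056 (quantile) and Phka1 0.032 (quantile), 0.035 (weights), 0.023 (block), 0.025 (pooled) and 0.025 (without the 3 narrowest arrays); in the beta-titled group, Pygm -0.021 (arrays shifted to one median), -0.068 (weights) and -0.0078 (without the 3 arrays) and Pygb 0.066 (quantile). For 16α-LE2 less estradiol, Gys1 was -0.066 (weights) and -0.040 (without the 3 arrays), and less the beta-titled group Gbe1 was -0.083 (without the 3 arrays). For estradiol less the beta-titled group, Ugp2 was -0.018 (quantile) and -0.071 (without the 3 arrays), and Pygb -0.0098 (quantile), -0.047 (block) and -0.031 (without the 3 arrays). Leaving out 1 array changed the sign within these ranges: against placebo, Ugp2 with 16α-LE2 -0.13 to 0.039, Gys1 and Phka1 with estradiol -0.014 to 0.13 and -0.094 to 0.044, Pygm in the beta-titled group -0.097 to 0.12; for 16α-LE2 less estradiol, Gys1 -0.040 to 0.11, Gbe1 -0.11 to 0.047 and Phkg1 -0.10 to 0.016; for 16α-LE2 less the beta-titled group, Pygb -0.098 to 0.0074; for estradiol less the beta-titled group, Ugp2 -0.059 to 0.15, Pygb -0.0020 to 0.10 and Phka1 -0.0098 to 0.11. The relation of Pygb with the array SD turned to -0.10 after quantile normalization.

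Counts over all genes moved more. For 16α-LE2 against placebo, 27 genes were called (3 higher, 24 lower), 16 with the mean over probe sets, 357 with array weights, 71 with pooled controls, 60 without the 3 narrowest arrays, 23 after quantile normalization (7 higher, 16 lower) and 8 (without placebo replicate 31) to 74 (without estradiol replicate 33) with 1 array left out. For 16α-LE2 against estradiol there were 2, with 4 without the filter, 0 with the mean over probe sets, 20 with weights, 1 without the 3 arrays and 0 to 11 with 1 array left out. For 16α-LE2 against the beta-titled group there were 21 (9 higher, 12 lower), with 32 after quantile normalization (9 higher, 23 lower), 13 with arrays shifted to one median (4 higher, 9 lower), 122 with weights, 46 with only those groups fitted, 10 without the 3 arrays and 7 to 37 with 1 array left out (37 without estradiol replicate 33). Estradiol against placebo and against the beta-titled group gave 0 to 1 with 1 array left out. Of the 21 gene pairs, 2 were called, 3 without the 3 narrowest arrays and 4 after quantile normalization. Replicate numbers shared between groups were not used as pairs in the main fit. Of 20 arrays, 3 correlated best with an array of their own number. Correlations of same-numbered arrays ran from -0.35 (number 33) to 0.51 (number 35), both between estradiol and the beta-titled group. Such a count cannot settle whether the numbers pair the arrays. With the replicate block, 16α-LE2 gave 36 calls against placebo, 4 against estradiol and 15 against the beta-titled group.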
